A study of Mus musculus with 5 samples.

Results

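The 6 genes described here, Ebf1, Pax5, Foxo1, Pou2af1, Bach2 and Lef1, encode transcription regulators that act when a blood progenitor takes up the B lineage. They were chosen by symbol, as every transcript of the RNA-seq table that carries one of these names. Each has 1 transcript there, so 6 of the 26531 transcripts and 6 of the 22098 gene symbols are described. The study measured RNA in 5 libraries of Hardy fraction A, which in Hardy's scheme holds the first cells of the B lineage, sorted from C57BL/6 mice aged 6 to 7 weeks without depletion of other lineages. Of these, 1 library came from dF4 mice (genotype Ikaros_ZnF4-/-, zinc finger 4 of Ikaros mutated on both alleles), 2 from dF1 mice (Ikaros_ZnF1-/-, zinc finger 1 mutated on both alleles) and 2 from wt mice, and no treatment is given for any of them. Ikaros, the product of Ikzf1, is a DNA-binding protein that lymphocyte development needs. Its N-terminal fingers bind DNA, and the design asks what the loss of finger 1 or of finger 4 does to RNA levels. Per the design text, the dF1 libraries are biological replicates and dF4 is a single sample of low coverage. Whether the wt libraries are from different mice is not said, and p-values therefore measure only the spread between these samples, part of which may be technical.

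In the bone marrow, a lymphoid progenitor becomes a B cell precursor when Ebf1 and Foxo1 are switched on by E proteins and then activate Pax5. Ebf1 opens chromatin at B cell genes, and Pax5 fixes the choice by activating B cell genes and repressing genes of other lineages. Foxo1 drives the recombinase genes and the receptor for interleukin 7, Pou2af1 is a coactivator of the octamer-binding Oct proteins, Bach2 is a repressor that pairs with small Maf proteins and holds back myeloid and plasma cell genes, and Lef1 is the nuclear effector of Wnt signals in early B cells.

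Levels are in RPKM, read counts scaled to transcript length and to the size of the library, so they can be compared between genes. Ikzf1 itself was at 237.7 RPKM in dF4, at 182.2 and 182.1 RPKM in dF1 and at 175.8 and 141.1 RPKM in wt. As 1 value for the whole transcript, it does not check the genotypes. The labels call the cells pro-B cells, but transcripts of plasmacytoid dendritic cells were among the main markers in dF1 and wt: Siglech was at 5.5 RPKM in dF4, 785.2 and 807.3 RPKM in dF1 and 936.2 and 838.4 RPKM in wt. Pro-B cell genes were present, though not each in every library. Igll1 (surrogate light chain) was at 167.2 RPKM in dF4, 35.3 and 39.6 RPKM in dF1 and 88.3 and 40.3 RPKM in wt. Rag1 was at 16.6 RPKM in dF4, 23.6 and 22.4 RPKM in dF1 and 29.7 and 13.1 RPKM in wt. Vpreb2 was listed at 0 in dF4 and was at 6.2 and 3.2 RPKM in dF1 and 6.6 and 1.9 RPKM in wt. Rag1 and Vpreb2 were named after their values were seen. The dF4 library stood apart. Its correlation with the others was 0.908 to 0.92 on the log2 scale, against 0.987 to 0.993 among the dF1 and wt libraries. Its low values put it at about 596000 reads, and the depth of the others is unknown. The libraries also differed in sex: Xist was listed at 0 in dF4 and in dF1 replicate 2 and was at 77.7 to 93.2 RPKM in dF1 replicate 1 and both wt libraries. Sex thus differed between dF4 and both wt libraries, and between the dF1 libraries.

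All 6 genes were detected in every library, and none passed the test between dF1 and wt. Of the 6, only Bach2 had libraries of the 2 groups that did not overlap, as did 4242 of the 12215 transcripts tested. In dF4, 5 of the 6 lay above all 4 other libraries, as did 4926 of the 12215 transcripts that averaged 1 RPKM or more. The factors over the wt mean were 1.44 (Foxo1), 2.61 (Ebf1), 3.86 (Bach2), 9.32 (Pax5) and 12 (Pou2af1). Lef1 in dF4 lay between the wt libraries. Summed markers of mature B, plasma, T, erythroid and stromal cells, neutrophils and monocytes were also higher in dF4 than in any other library. The part of these cells in the levels of the 6 genes was not tested. In bulk samples like these, a change in the number of cells of a type and a change in RNA per cell cannot be told apart. Over the 12215 transcripts that averaged 1 RPKM or more, limma called 0 (0%) between dF1 and wt at an adjusted p of 0.05, and 875 had an unadjusted p under 0.05, none of them one of the 6. With robust variances 33 transcripts were called, with a filter of 5 RPKM 25 and with no filter 245, again none of the 6. The 6 genes all passed that filter, with or without the dF4 library. The median dF1 minus wt difference over the 6 was -0.14 on the log2(RPKM + 1) scale, against 0.01 over all transcripts tested, and was 0.16 without wt replicate 1 and -0.47 without wt replicate 2. The median dF4 minus wt difference was 1.59, against 0.02 over all. The scale understates the change of low transcripts, and the dF4 and dF1 differences share the wt libraries.

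**Figure D1:**
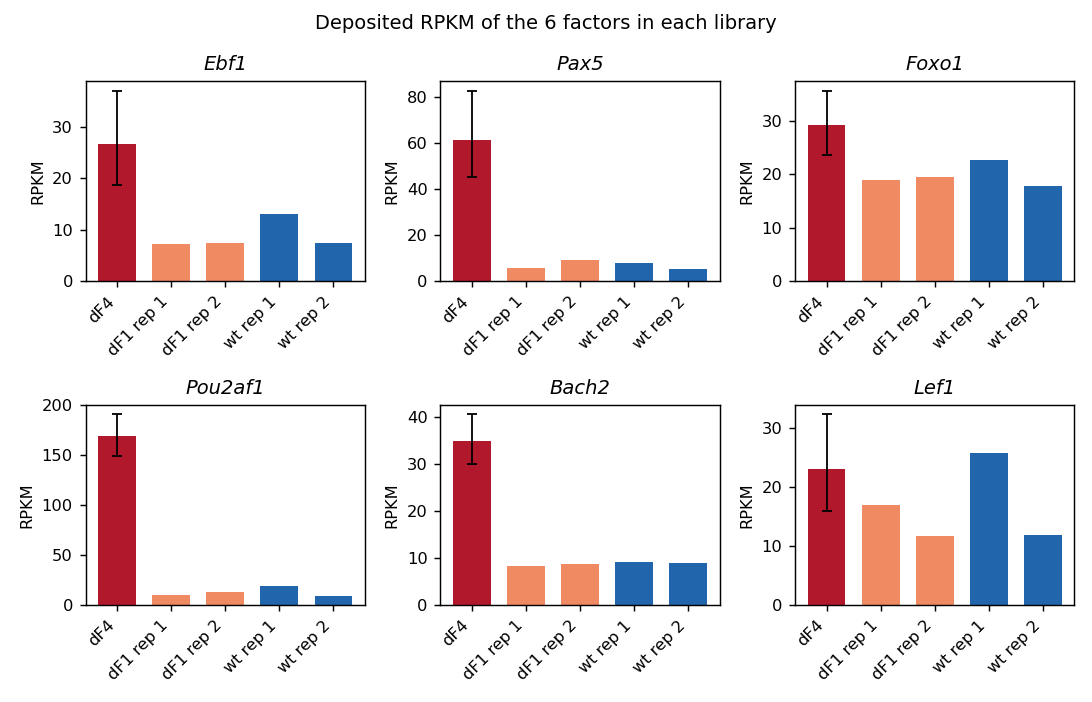
RPKM (vertical axes, each from 0) of the 6 genes in each of the 5 libraries, 1 bar a library, with exact 95% Poisson intervals on the reads of the dF4 library, the only one whose depth could be estimated. Pou2af1 reached 169 RPKM in dF4 against 8.9 to 19.3 RPKM in the dF1 and wt libraries, while Lef1 in dF4 lay within the wt range.

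The dF4 difference has no replicate and no test. It was described by a size rule: the dF4 value lies outside both wt values and at least 1 from the wt mean on the log2 scale, with the wt libraries within 0.5 of each other. Of the 10777 transcripts whose wt libraries lay that close, 12% were higher and 12.1% lower in dF4 by this rule. Only Pax5, Foxo1 and Bach2 could be counted, and 2 of these 3, Pax5 and Bach2, were higher. A second rule, added after the values were seen, asks that dF4 lie at least 1 beyond the nearest of all 4 other libraries. It was met by 9.58% of the 12215 transcripts in the higher direction, and by 3 of the 6 genes, Pax5, Pou2af1 and Bach2. Ebf1 was just short of it, at 0.98 above the highest of the 4.

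Ebf1 encodes early B cell factor 1, which specifies the lineage. Its RNA (NM_007897) was at 26.6 RPKM in dF4, with an interval of 18.7 to 37 RPKM from 36 reads, at 7.2 and 7.4 RPKM in dF1 and at 13 and 7.4 RPKM in wt. The dF1 libraries nearly coincided with wt replicate 2, and wt replicate 1 stood above them by a factor of 1.76 over its partner. The means were 7.3 ± 0.141 RPKM in dF1 and 10.2 ± 3.96 RPKM in wt (SD, n = 2 each), a log2 difference of -0.39 (SE 0.27, 95% interval -1.07 to 0.30, limma adjusted p = 0.819). Without wt replicate 2 the difference was -0.75 and without wt replicate 1 it was -0.02, so that 1 wt library set its size. Ebf1 in dF4 was 1.73 above the dF1 mean on the log2 scale.

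The RefSeq promoter table (build GRCm38.p6, 250 bases before to 50 bases after a transcript start) holds 10 windows for the 6 genes, 2 for Ebf1, 4 for Lef1 and 1 for each of the others. They were searched on both strands for TGGGAA, the core of the sites that Ikaros binds, and for CAGGTG, an E-box read by E proteins. TGGGAA is in 25.6% of the 32851 windows of the table and CAGGTG in 20.2%, so that a match is common. The second Ebf1 window is shown because it holds the core, written in capitals as its reverse complement TTCCCA, 207 bases before the start. The first Ebf1 window held neither. Every window is printed 5′ to 3′ in the direction of its gene, also for a gene on the minus strand.
Ebf1 promoter, chr11:44619978-44620277, plus strand: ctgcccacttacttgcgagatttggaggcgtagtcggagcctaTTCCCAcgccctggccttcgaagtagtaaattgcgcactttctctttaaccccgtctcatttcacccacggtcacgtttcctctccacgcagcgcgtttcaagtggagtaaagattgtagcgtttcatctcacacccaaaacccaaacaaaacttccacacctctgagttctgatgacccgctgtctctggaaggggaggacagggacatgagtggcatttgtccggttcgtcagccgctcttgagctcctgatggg

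Pax5 encodes the commitment factor that activates B cell genes and silences genes of other lineages. Its RNA (NM_008782) was at 61.5 RPKM in dF4 (45.2 to 82.9 RPKM, from 45 reads), at 6 and 9.4 RPKM in dF1 and at 7.8 and 5.4 RPKM in wt. The dF4 value was 2.59 above the highest of the other libraries on the log2 scale, and the dF1 and wt libraries overlapped. Pax5 averaged 7.7 ± 2.4 RPKM in dF1 and 6.6 ± 1.7 RPKM in wt (SD, n = 2 each), a log2 difference of 0.19 (SE 0.27, 95% interval -0.50 to 0.87, limma adjusted p = 0.91). It was the only one of the 6 with a positive dF1 difference, and that sign turned without dF1 replicate 2 (-0.10) or without wt replicate 2 (-0.05). Among the 6 it was the lowest in wt and the second highest in dF4.

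Pou2af1 encodes the coactivator known as OCA-B or OBF-1, which mature B cells use with Oct2 in the germinal centre response. Its RNA (NM_011136) was at 169 RPKM in dF4 (149 to 191 RPKM, from 259 reads), at 9.7 and 13.2 RPKM in dF1 and at 19.3 and 8.9 RPKM in wt. This was the largest dF4 difference of the 6, 3.07 above the highest of the other libraries on the log2 scale and 14.8 times the dF1 mean. The size rule could not count it, since the wt libraries differed by a factor of 2.17. Pou2af1 averaged 11.45 ± 2.47 RPKM in dF1 and 14.1 ± 7.35 RPKM in wt (SD, n = 2 each), a log2 difference of -0.20 (SE 0.37, 95% interval -1.15 to 0.75, limma adjusted p = 0.931). That difference was 0.32 without wt replicate 1 and -0.72 without wt replicate 2. Among all transcripts of the table, Pou2af1 stood at percentile 99.2 in dF4, at 76.1 and 79.8 in dF1 and at 85.2 and 75.3 in wt.

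The windows of Pax5 and Pou2af1 are shown because these 2 genes had the largest dF4 differences. Neither holds the Ikaros core, the E-box, the octamer ATGCAAAT (in 1.74% of all windows) or TGTTTAC, a core read by forkhead proteins such as Foxo1 (in 3.65%), on either strand. That says only that these letters are not in these windows.
Pax5 promoter, chr4:44710645-44710944, minus strand: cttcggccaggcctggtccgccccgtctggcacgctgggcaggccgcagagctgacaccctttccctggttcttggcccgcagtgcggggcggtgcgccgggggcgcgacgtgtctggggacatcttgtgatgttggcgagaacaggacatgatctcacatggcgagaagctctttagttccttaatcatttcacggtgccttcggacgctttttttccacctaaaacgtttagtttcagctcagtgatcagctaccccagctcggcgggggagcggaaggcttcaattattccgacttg
Pou2af1 promoter, chr9:51213440-51213739, plus strand: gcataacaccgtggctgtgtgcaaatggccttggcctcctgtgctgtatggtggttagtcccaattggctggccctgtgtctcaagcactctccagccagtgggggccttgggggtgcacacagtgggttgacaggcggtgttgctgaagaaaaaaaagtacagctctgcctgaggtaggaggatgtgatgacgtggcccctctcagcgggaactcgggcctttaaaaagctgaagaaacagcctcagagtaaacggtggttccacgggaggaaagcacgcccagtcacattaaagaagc

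Bach2, the repressor, had RNA (NM_001109661) at 34.9 RPKM in dF4 (30 to 40.5 RPKM, from 177 reads), at 8.3 and 8.7 RPKM in dF1 and at 9.2 and 8.9 RPKM in wt. It was the most even of the 6 among the dF1 and wt libraries, and dF4 lay 1.82 above the highest of them on the log2 scale. Both dF1 libraries were below both wt libraries, as in 17.9% of all transcripts tested. The gap was small: 8.5 ± 0.283 RPKM in dF1 against 9.05 ± 0.212 RPKM in wt (SD, n = 2 each), a log2 difference of -0.08 (SE 0.13, 95% interval -0.42 to 0.26, limma adjusted p = 0.917).

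Foxo1, the forkhead factor, had RNA (NM_019739) at 29.3 RPKM in dF4 (23.7 to 35.7 RPKM, from 97 reads), at 19 and 19.6 RPKM in dF1 and at 22.7 and 17.9 RPKM in wt. The dF1 libraries lay between the wt libraries, and the lower end of the dF4 interval was above all 4. Foxo1 averaged 19.3 ± 0.424 RPKM in dF1 and 20.3 ± 3.39 RPKM in wt (SD, n = 2 each), a log2 difference of -0.06 (SE 0.15, 95% interval -0.45 to 0.33, limma adjusted p = 0.948), which was 0.10 without wt replicate 1. Its dF4 minus wt difference of 0.52 did not reach the size rule. The Foxo1 and Bach2 windows hold none of the 4 motifs.

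Lef1, the Wnt effector, had RNA (NM_010703) at 23.1 RPKM in dF4 (16 to 32.3 RPKM, from 34 reads), at 16.9 and 11.7 RPKM in dF1 and at 25.7 and 11.9 RPKM in wt. It was the only one of the 6 whose dF4 value lay within the range of the other libraries. The libraries of a genotype differed as much as the genotypes, with wt replicate 1 at 2.16 times wt replicate 2. Lef1 averaged 14.3 ± 3.68 RPKM in dF1 and 18.8 ± 9.76 RPKM in wt (SD, n = 2 each), a log2 difference of -0.30 (SE 0.38, 95% interval -1.28 to 0.68, limma adjusted p = 0.894), which was 0.23 without wt replicate 1 and -0.82 without wt replicate 2. T cells also express Lef1, and T cell markers summed to 1087.9 RPKM in dF4, 634.9 and 597.6 RPKM in dF1 and 607.4 and 347.5 RPKM in wt, their part in the Lef1 level not being tested. Among its 4 windows, 3 hold TGGGAA, at 39, 13 and 44 bases after the start. The first and second windows overlap and their matches are the same site, so that there are 2 distinct sites. The second also holds CAGGTG on the minus strand, 31 bases after the start, and is shown because it is the only window of the 6 genes with both. The 2 motifs do not overlap.
Lef1 promoter, chr3:131110073-131110372, plus strand: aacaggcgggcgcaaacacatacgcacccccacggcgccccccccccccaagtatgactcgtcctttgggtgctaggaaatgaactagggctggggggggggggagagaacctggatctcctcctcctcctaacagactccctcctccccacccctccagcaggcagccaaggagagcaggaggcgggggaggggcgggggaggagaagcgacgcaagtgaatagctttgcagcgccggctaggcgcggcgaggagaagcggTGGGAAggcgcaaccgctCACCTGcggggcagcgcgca

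**Figure D2:**
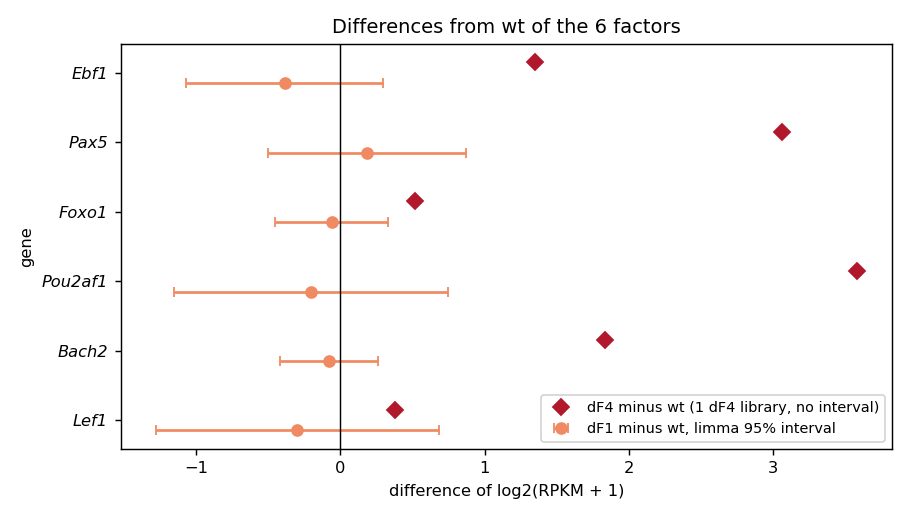
Differences from the wt mean on the log2(RPKM + 1) scale (horizontal axis) for the 6 genes (rows), with diamonds for the single dF4 library and circles with limma 95% intervals for dF1 (n = 2 against 2). All 6 dF1 intervals include 0, and the dF4 differences run between 0.38 for Lef1 and 3.58 for Pou2af1.

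The wt libraries differed from each other in the same direction for every gene. All 6 genes had more RNA in wt replicate 1 than in the other wt library, with a median log2 difference of 0.60, against 60.3% of transcripts and a median of 0.08 over all. For Ebf1, Pou2af1 and Lef1 the wt libraries were further apart than 0.5. Of the B lineage lists, 18 of 24 genes activated by Ebf1 or Pax5 and 9 of 13 mature B cell genes were higher in wt replicate 1. So were 9 of 19 other early B lineage factors. Markers of other cells differed between the wt libraries in both directions. All 16 NK cell markers and 16 of 17 T cell markers were higher in wt replicate 1, and the NK list summed to 2934.9 RPKM there and 1387.9 RPKM in wt replicate 2. Higher in wt replicate 1 were 2 of 20 neutrophil markers, 1 of 14 erythroid markers and 6 of 20 markers of plasmacytoid dendritic cells. The part of these cells in the levels of the 6 genes was not tested. Between the dF1 libraries, replicate 1 was higher for 1 of the 6, against 4793 of the 12215 transcripts tested. The median log2 difference, replicate 1 minus replicate 2, was -0.052 over the 6 and -0.053 over all.

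The order of the 6 genes by level differed between the genotypes. In dF4 it was Pou2af1, Pax5, Bach2, Foxo1, Ebf1 and Lef1. In dF1 it was Foxo1, Lef1, Pou2af1, Bach2, Pax5 and Ebf1, and neighbours overlapped except Lef1 below Foxo1 and Bach2 below Pou2af1. In wt it was Foxo1, Lef1, Pou2af1, Ebf1, Bach2 and Pax5, and neighbours overlapped except Pax5 below Bach2. In dF4 the Poisson intervals of Bach2, Foxo1, Ebf1 and Lef1 overlapped, and those of Pax5 and Pou2af1 stood clear of them and of each other.

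Markers of several cell types set the dF4 library apart. Of the 13 mature B cell genes tested, 3 of which passed the filter only through dF4, all 13 were higher in dF4 than in the wt mean, 9 of the 10 countable ones by the size rule. The 14 list members in the table summed to 3895.2 RPKM in dF4, 1485.2 and 1043.2 RPKM in dF1 and 1154 and 915.3 RPKM in wt. Ms4a1 (CD20) was at 80.9 RPKM in dF4, 0.9 and 1.3 RPKM in dF1 and 1.6 and 1.2 RPKM in wt, and Faim3 at 198 RPKM in dF4, 1.4 and 1.7 RPKM in dF1 and 2.8 and 2.2 RPKM in wt. Both mark B cells past the stage that fraction A is meant to hold. The sums are mostly Cd74, which dendritic cells also express, at 3207.6 RPKM in dF4, 1425.7 and 983.9 RPKM in dF1 and 1079.7 and 850.7 RPKM in wt. Cr2, of mature follicular B cells, was at 0.3 RPKM or below in every library.

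Neutrophil markers summed to 34724 RPKM in dF4, 261.9 and 921.4 RPKM in dF1 and 455.1 and 1142.5 RPKM in wt, and erythroid markers to 1091.1 RPKM in dF4, 138.8 and 158.3 RPKM in dF1 and 173 and 226.3 RPKM in wt. The 20 markers of plasmacytoid dendritic cells were all lower in dF4, 15 of 16 countable ones by the size rule, and Cox6a2, Cd300c and Klk1 were listed at 0 there. Their sum was 1150.5 RPKM in dF4, 6164 and 6601 RPKM in dF1 and 6652.4 and 7675.6 RPKM in wt. Genotype, cell makeup, depth and the single library cannot be told apart in dF4, and against wt sex cannot be either.

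**Figure D3:**
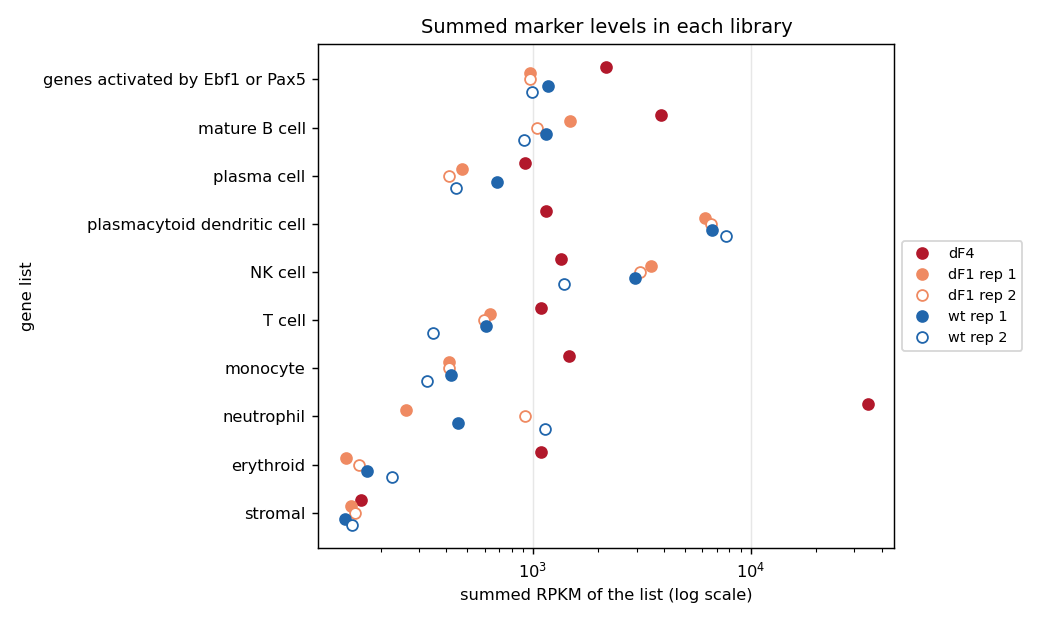
Summed RPKM of marker lists (rows) in each library, on a logarithmic horizontal axis, with 1 symbol a library. The dF4 library is below the other 4 in the plasmacytoid dendritic and NK cell lists and above them in every other list shown. The gap is narrow for stromal markers, at 162.2 RPKM in dF4 against 152.9 RPKM in dF1 replicate 2. It is also narrow for NK cell markers, at 1353.4 RPKM in dF4 against 1387.9 RPKM in wt replicate 2.

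To place the 6 genes against B cell RNA, each was divided by the sum of Cd79a and Cd79b, the signalling chains of the B cell receptor complex. The sum was 520.7 RPKM in dF4, 121.7 and 142.8 RPKM in dF1 and 113.3 and 72.3 RPKM in wt. Per 100 RPKM of it, Pou2af1 was at 32.5 RPKM in dF4, 7.97 and 9.24 RPKM in dF1 and 17 and 12.3 RPKM in wt. Pax5 was at 11.8 RPKM in dF4, 4.93 and 6.58 RPKM in dF1 and 6.88 and 7.47 RPKM in wt. On this scale dF4 was above all 4 other libraries for these 2 of the 6 genes, against 4.31% of all transcripts tested.

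Ebf1, Foxo1 and Lef1 were below all 4 libraries in dF4 per unit of B cell RNA, as were 91% of all transcripts. Ebf1 was at 5.11 RPKM per 100 in dF4, 5.92 and 5.18 RPKM in dF1 and 11.5 and 10.2 RPKM in wt. Foxo1 was at 5.63 RPKM per 100 in dF4, 15.6 and 13.7 RPKM in dF1 and 20 and 24.8 RPKM in wt. Between dF1 and wt, all 6 genes had both dF1 libraries below both wt libraries on this scale. So did 69.4% of all transcripts, and Cd79a and Cd79b themselves had more RNA in both dF1 libraries than in both wt libraries. Lef1 was at 4.44 RPKM per 100 in dF4, 13.9 and 8.19 RPKM in dF1 and 22.7 and 16.5 RPKM in wt. Bach2 in dF4 lay between the dF1 libraries, at 6.7 RPKM per 100 in dF4, 6.82 and 6.09 RPKM in dF1 and 8.12 and 12.3 RPKM in wt.

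**Figure D4:**
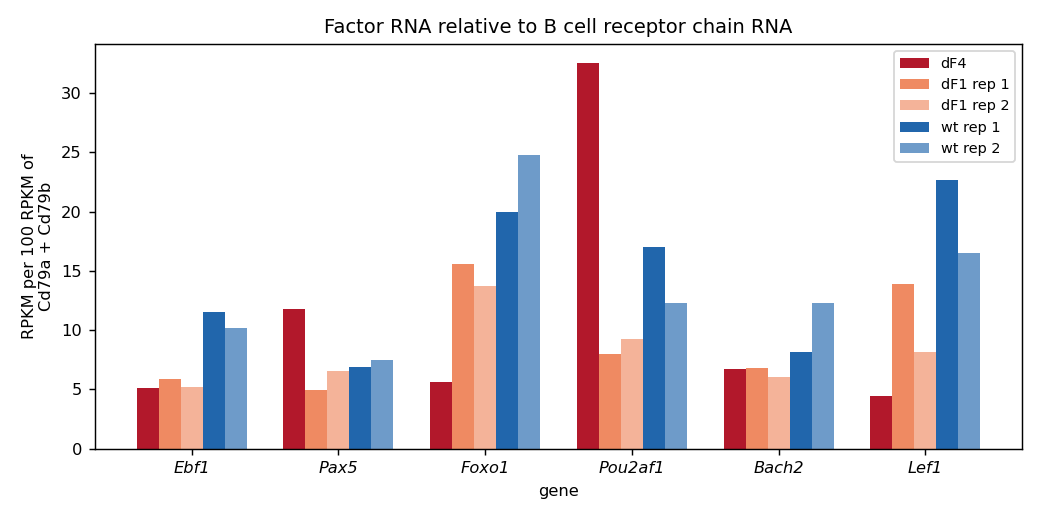
RPKM of each of the 6 genes per 100 RPKM of Cd79a and Cd79b together (vertical axis), 1 bar a library. Pou2af1 and Pax5 are highest in dF4 at 32.5 and 11.8, and Ebf1, Foxo1 and Lef1 are lowest there.

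The targets of the 6 factors were taken from lists by known role, each gene by its transcript with the highest mean. No member of any list passed the test between dF1 and wt. Of 24 genes activated by Ebf1 or Pax5, 2 of which passed the filter only through dF4, 9 were higher and 15 lower in dF1 by their means, with a median log2 difference of -0.25. It was -0.07 without wt replicate 1, -0.36 without the other wt library and -0.16 with dF1 replicate 1 left out. Both dF1 libraries lay above both wt libraries for 5 and below for 10, where all transcripts gave 16.8% above and 17.9% below. Blk, a kinase that passes on signals of the B cell receptor, was at 89.8 RPKM in dF4, 14.4 and 13.8 RPKM in dF1 and 35.8 and 34.5 RPKM in wt, a dF1 difference of -1.26 (SE 0.11, limma adjusted p = 0.126). Cd22, an inhibitory co-receptor, was at 65 RPKM in dF4, 8.8 and 9.1 RPKM in dF1 and 15.9 and 23.4 RPKM in wt (difference -1.03, limma adjusted p = 0.376). The signalling chain Cd79a went the other way, at 149 RPKM in dF4, 31.4 and 34.8 RPKM in dF1 and 28.2 and 12.7 RPKM in wt (difference 0.77, limma adjusted p = 0.751). Cplx2 had a dF1 difference of -0.79 (limma adjusted p = 0.58).

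In dF4, 20 of the same 24 genes were above the wt mean, with a median of 0.94, and 6 of 15 countable ones were higher and 1 lower by the size rule. The 20 and the 6 include Fcer2a and Rasgrp3, the 2 that passed the filter only through dF4 and so had to be higher there. Fcer2a (CD23), which is also on the mature B cell list, was at 31.1 RPKM in dF4, 0.2 and 0.5 RPKM in dF1 and 0.5 and 0.7 RPKM in wt. The exchange factor Rasgrp3 and the receptor Fcrl1 had dF4 differences of 3.48 and 3.26. The pro-B cell gene Vpreb1, named after its values were seen, was at 30.5 RPKM in dF4, 14.3 and 8.6 RPKM in dF1 and 28.8 and 10.3 RPKM in wt, so that dF4 lay close to wt replicate 1. Vpreb1 has a close copy, and how reads were shared is not given.

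Of 18 genes that Pax5 represses, 9 were higher and 9 lower in dF1, and 6 were higher and 12 lower in dF4, with medians of -0.003 and -0.22. Neither median kept a sign: the dF1 median was 0.017 under quantile normalization, and the dF4 median was 0.035 without wt replicate 1 and -0.53 without wt replicate 2. Flt3, the progenitor receptor that Pax5 silences, was at 5.5 RPKM in dF4, 118.8 and 141.2 RPKM in dF1 and 135.1 and 144.1 RPKM in wt. Csf1r, the macrophage growth factor receptor, was at 41.7 RPKM in dF4, 2.4 and 7.3 RPKM in dF1 and 4.7 and 3.2 RPKM in wt. These lay on opposite sides of wt in dF4, and plasmacytoid dendritic cells also express Flt3 while monocytes express Csf1r. Cd33, a myeloid lectin, was at 42.5 RPKM in dF4, 20.6 and 23.2 RPKM in dF1 and 7.8 and 9.3 RPKM in wt (dF1 difference 1.26, SE 0.15, limma adjusted p = 0.193). Sdc1 (CD138) was at 12 RPKM in dF4, 5.5 and 5.2 RPKM in dF1 and 13.8 and 14.3 RPKM in wt (difference -1.25, SE 0.13, limma adjusted p = 0.193). Neither passed the correction, and the dF1 differences of Ly6a and Gzma were -1.49 and 1.10 (limma adjusted p = 0.586 and 0.596). Igj differed widely between the wt libraries, at 331.2 RPKM in dF4, 21.2 and 10.5 RPKM in dF1 and 132.1 and 7.3 RPKM in wt, and Cebpb was 2.78 above the wt mean in dF4.

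Of 19 genes that Foxo1 activates, 10 were higher and 9 lower in dF1, and likewise in dF4, with medians of 0.015 and 0.002. The dF1 median was -0.014 under quantile normalization and the dF4 median -0.07 under median centring, so no direction is given. The recombinase gene Rag1 was at 16.6 RPKM in dF4, 23.6 and 22.4 RPKM in dF1 and 29.7 and 13.1 RPKM in wt. Il7r, the interleukin 7 receptor, was at 51.3 RPKM in dF4, 73 and 73.5 RPKM in dF1 and 99.3 and 85.9 RPKM in wt. These 2 were named for their role in pro-B cells, after their values were seen. By size of difference, S1pr1, which guides lymphocytes into blood, was at 33.8 RPKM in dF4, 20.3 and 18.9 RPKM in dF1 and 12.2 and 8.2 RPKM in wt (dF1 difference 0.90, limma adjusted p = 0.453). The homing receptor Ccr7 was at 33.9 RPKM in dF4, 9.9 and 10.1 RPKM in dF1 and 6.9 and 6.4 RPKM in wt (0.53, limma adjusted p = 0.533). Gadd45a and Irs2 had dF1 differences of -0.45 and -0.39 and dF4 differences of 2.10 and 1.36, and Pik3ip1 had a dF4 difference of -2.21.

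Lef1 targets and other Wnt-responsive genes had 7 of 11 members over the filter, of which 6 were higher in dF1 and 3 in dF4, with medians of 0.28 and -0.05. The dF1 median was 0.57 without wt replicate 1, -0.008 without the other wt library and 0.13 with dF1 replicate 2 left out, and the dF4 median was 0.24 without wt replicate 1, 0.04 without wt replicate 2 and 1.12 with a filter of 5 RPKM, so no direction is given. Myc was at 30.7 RPKM in dF4, 21.7 and 25.5 RPKM in dF1 and 16.6 and 8.5 RPKM in wt (dF1 difference 0.92, limma adjusted p = 0.66). Axin2, a feedback inhibitor of Wnt signalling, was at 5.4 RPKM in dF4, 1.5 and 2.2 RPKM in dF1 and 1 and 0.9 RPKM in wt (0.54, limma adjusted p = 0.66). The R-spondin receptor Lgr5 was low throughout and had the largest dF1 difference of the list, at -1.63 (limma adjusted p = 0.199). The cyclin gene Ccnd1 was at 6.6 RPKM in dF4, 120.4 and 149.3 RPKM in dF1 and 123.4 and 139.3 RPKM in wt.

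Genes that Bach2 binds or represses had 9 of 10 members over the filter, 1 of them only through dF4, with 7 above the wt mean in dF1 and 7 in dF4. The medians were 0.17 and 1.06, and the dF1 median was -0.08 without wt replicate 2. Hmox1, the heme oxygenase gene that Bach factors repress, was at 27.3 RPKM in dF4, 5.4 and 7.4 RPKM in dF1 and 3.7 and 4.6 RPKM in wt (dF1 difference 0.52, SE 0.20, limma adjusted p = 0.694). Gclm, of glutathione synthesis, was at 42.1 RPKM in dF4, 8.4 and 10.9 RPKM in dF1 and 8.8 and 9.2 RPKM in wt. By the size rule, 5 of 7 countable members were higher and 1, Fth1, was lower in dF4. The 5 include Nqo1, which passed the filter only through dF4 and rests on 5 reads there, and Cebpb, on 12 reads. Bach2 RNA and that of several genes it represses were high in the same dF4 library, in which neutrophil and erythroid markers were high as well. Fth1 has close copies in the genome and is uncertain. Txnrd1 had a dF1 difference of 0.34 (limma adjusted p = 0.776), and Nqo1 was at 5.4 RPKM in dF4 and at most 0.4 RPKM in the other libraries.

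Many paralogs were listed at 0. Of 22 paralogs and partners, 9 were listed at 0 in every library, namely Ebf2, Ebf4, Pax1, Pax2, Pax3, Pax6, Pax8, Foxo6 and Pou2f3, and 10 passed the filter. Their medians were -0.01 in dF1 and -0.24 in dF4 (-0.14 without wt replicate 2), and the dF1 median was 0.11 without dF1 replicate 1 and -0.11 without dF1 replicate 2. Pou2f2, which encodes the Oct2 partner of Pou2af1, was at 33.6 RPKM in dF4, 4.6 and 7.7 RPKM in dF1 and 6 and 7.1 RPKM in wt, while Pou2f1, which encodes Oct1, was at 4.4 RPKM in dF4, 5.8 and 4.7 RPKM in dF1 and 4.8 and 5.4 RPKM in wt. Pou2f2 was high in dF4 together with Pou2af1. Bach1 was at 15.5 RPKM in dF4, 7.4 and 7.9 RPKM in dF1 and 8.3 and 8 RPKM in wt, and the Bach partner Mafg had a dF4 difference of 1.32. Tcf7, the T cell relative of Lef1, was at 152.9 RPKM in dF4, 90.1 and 81.2 RPKM in dF1 and 106.5 and 45.7 RPKM in wt, low in wt replicate 2 as Lef1 was. Another relative, Tcf7l2, was listed at 0 in dF4 and was at 5.8 and 5.4 RPKM in dF1 and 6.2 and 11.1 RPKM in wt (dF1 difference -0.50, limma adjusted p = 0.774). Foxo3, named like Pou2f1 as a relative after its values were seen, was at 12.1 RPKM in dF4, 18.4 and 19.7 RPKM in dF1 and 18.5 and 16.8 RPKM in wt.

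Of 19 other early B lineage factors, 7 were higher and 12 lower in dF1, with a median of -0.09 (0.12 without dF1 replicate 1 and -0.23 without dF1 replicate 2), and 11 were higher and 8 lower in dF4, with a median of 0.46. Both dF1 libraries lay below both wt libraries for 3 of the 19 and above them for 2. All transcripts gave 17.9% below and 16.8% above. Among the 3 was Myb (105.4 RPKM in dF4, 46.4 and 42.9 RPKM in dF1, 59 and 65.2 RPKM in wt), which lymphoid progenitors need. Its dF1 difference was -0.47 (SE 0.12, limma adjusted p = 0.526). Runx1 (-0.33) and Sox4 (-0.26) were also on that side and Ikzf1 (0.21) on the other, none of them called. In dF4, Irf8 was at 215.8 RPKM, against 1019.5 and 1359.5 RPKM in dF1 and 1190.3 and 1317.2 RPKM in wt, and Tcf4, which encodes E2-2, was 2.50 below the wt mean. Both factors are also on the list of plasmacytoid dendritic cell markers. Irf4, of plasma and activated B cells, was at 45.8 RPKM in dF4, 9.4 and 11.4 RPKM in dF1 and 12.5 and 7.8 RPKM in wt, and Ikzf3, which encodes Aiolos, at 164.7 RPKM in dF4, 51.3 and 45.3 RPKM in dF1 and 55.9 and 29.1 RPKM in wt.

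Profiles over the 5 libraries were compared with those of 8758 other transcripts, by the root mean square difference of log2 values centred on their own mean. Since dF4 sets most of the range, likeness is mostly likeness of the dF4 step, and it is given as a description. Among the nearest to Pou2af1 were Cd83 (0.24), which is on the mature B cell list, and S100a1 (0.25), and Pax5 came at place 16 (0.39). Among the nearest to Pax5 were Sepx1 (0.12) and F5 (0.18), neither of which is on a B cell list. Ebf1 was nearest to Hist1h1c (0.12), Cyth3 (0.14) and Adap1 (0.16), and Bach2 to 4930523C07Rik (0.03), 0610037L13Rik (0.03) and Osm (0.06). Lef1, which was highest in wt replicate 1 and dF4, was nearest to Snrpe (0.15), Arntl (0.16) and Ifng (0.17). Foxo1 ranged over 0.68 only, under the limit of 1 set for the comparison.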

How the data were processed

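RNA was measured by RNA-seq (Illumina TruSeq, mRNA enriched from total RNA, per the labels' protocols) in 5 libraries. The deposited table gives RPKM to 1 decimal, by RefSeq transcript, per the file headers. TopHat, bedtools and mouse build mm9 are named without versions in the submitters' processing notes. How reads were aligned, assigned by strand or shared among gene copies is not given in the sources used, so genes with close copies or an overlapping antisense partner are uncertain. No per-sample column was left unused (0), and 1 line that named no gene was left out.

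Values were taken as log2(RPKM + 1). limma 3.58.1, run under R 4.3.3 (lmFit, then eBayes with a mean-variance trend), compared dF1 with wt, two-sided, on the 12215 transcripts whose mean of all 5 libraries reached 1 RPKM. P-values were adjusted by Benjamini-Hochberg over all of them, with 0.05 as the threshold. The dF4 library stayed out of the fit and has no test. For a single gene, 2 libraries against 2 allow an exact permutation p of 0.333 at the lowest, so none was used. Depth was sought in the low values: in dF4, 83.4% of 3355 low values were whole multiples of 1.677 RPM (reads scaled to library size) within 0.1 read, which puts 1 read at that step and the library at about 596000 reads. No such step was resolved in the others. Intervals are exact 95% Poisson intervals on those reads and cover counting error only.

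The 6 genes and all lists were chosen with earlier results of these data known. From each list of targets, partners and factors, the text names up to 4 genes with the largest dF1 difference among those whose libraries do not overlap and the 4 with the largest dF4 difference, and says where others were added. For likeness, the 3 nearest transcripts averaging 5 RPKM or more are named for each gene that ranges over at least 1. Some genes that these rules name are not reported here. Ighm, Ighd and Ahsp were not matched in the table and were not used here. Alternatives were pseudocounts of 0.1 and 5, no filter or 5 RPKM, 1 transcript a symbol, median centring, quantile normalization, robust variances, a replicate block and leaving out each library. Promoters are from RefSeq (GRCm38.p6), whose build differs from that of the values, and were matched by symbol for 6 of 6 genes.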

Additional observations from a re-analysis of the deposited data

How the results depend on the processing

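No member of the 6 was called between dF1 and wt under any alternative. Over all transcripts the count of calls was 0 except with a filter of 5 RPKM (25, 13 higher and 12 lower), no filter (245, 93 higher and 152 lower) and robust variances (33, 16 higher and 17 lower); the cause was not tested. Leaving out a library, the dF1 minus wt difference ran from -0.1 to 0.471 for Pax5, -0.224 to 0.103 for Foxo1, -0.72 to 0.316 for Pou2af1, -0.824 to 0.225 for Lef1, -0.754 to -0.017 for Ebf1 and -0.112 to -0.051 for Bach2, with signs turning for the first 4 named, and the median over the 6 from -0.472 to 0.164. In these fits a lone library is assumed to vary like the other group. Under the other settings that median lay between -0.154 and -0.113. The replicate block gave 0 calls and left the differences as they were; replicate 2 minus replicate 1 correlated at 0.305 between wt and dF1 over 12215 transcripts, but with 2 pairs and no stated batch the samples share only a number.

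The median dF4 minus wt difference over the 6 lay between 1.293 and 1.683 under other settings and between 1.397 and 1.787 without a wt library. The size rule counted 2595 transcripts, 1428 with a filter of 5 RPKM, which tests fewer transcripts, and 1378 with a pseudocount of 5, which shrinks differences of low transcripts. It counted 3246 to 3393 with 1 wt library, where the limit on the wt spread cannot act, and the rule over all 4 other libraries counted 2339. Without wt replicate 2 the dF4 difference of Lef1 was -0.148, and without wt replicate 1 it was 0.902. In dF4, Ebf1 rests on 36 reads and Lef1 on 34, and their intervals are correspondingly wide.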
